A study of Homo sapiens with 6 samples.

Results

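Homologous recombination copies a missing stretch of DNA from the sister chromatid and repairs double-strand breaks and collapsed replication forks. The ends are first resected to single strands, the BRCA proteins load a recombinase onto them, and paralogs of that recombinase support strand exchange. The Fanconi anaemia pathway feeds crosslinked DNA into the same machinery: a core complex with the ubiquitin-conjugating enzyme UBE2T attaches ubiquitin to the pair FANCI and FANCD2, and the kinases ATM, ATR, CHEK1 and CHEK2 signal the damage to the cell cycle. Many of these genes are transcribed mainly in S and G2 phase of dividing cells, tumour lines included.

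The 34 genes described here are named members of these pathways, taken by symbol from a table of 57773 genes. The rule that lists them uses no measured value, although it was drawn up with earlier results of these data known. All 34 were found by symbol. H460, a non-small-cell lung cancer cell line, was transfected for 48 h with siRNA at 50 nM, either a non-targeting siRNA (siNT, 3 libraries) or one against the long intergenic noncoding RNA HKlincR1 (siHKlincR1, 3 libraries), each labelled as a biological replicate. The question was which genes change when HKlincR1 is reduced. Of the 2 siRNAs against HKlincR1 in the labels, the study's methods give siHKlincR1_2 as the one sequenced, so effects of its sequence and of its target cannot be told apart. The values are RPKM, read counts scaled to the length of the gene model and to the size of the library.

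HKlincR1 stood at 3.62, 3.47 and 3.83 RPKM in siNT and at 0.563, 0.628 and 0.390 RPKM in siHKlincR1, with no overlap. Its mean fell by 85.5%, a log2 fold change of -2.59 (SE 0.17), with an adjusted p of 0.00245 by limma with Benjamini-Hochberg adjustment over 15451 genes. Library totals, worked back from the RPKM, ran from 24980280 to 30521000 reads. The epithelial keratins KRT8, KRT18 and KRT19 were at 31.5, 82.4 and 41.6 RPKM in siNT, whereas the epithelial markers EPCAM and CDH1 stayed at or below 0.11 RPKM. The leukocyte marker PTPRC stayed at or below 0.0691 RPKM.

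None of the 33 repair genes tested passed both thresholds, an adjusted p under 0.05 and a change above 1.5-fold. With edgeR on counts at the same thresholds, the study reported more genes than this limma fit, both lower and higher. Over all genes tested, 0.356% passed lower and 0.00647% passed higher. With the replicate number as a block, which raised those shares to 0.809% lower and 0.511% higher, again no repair gene passed. Dropping the fold threshold from the blocked fit added none, against 1.72% of all genes lower and 1.2% higher. The smallest adjusted p by limma with the block were 0.07 (RAD50), 0.0702 (FANCG), 0.0807 (FANCA), 0.0891 (XRCC3) and 0.0953 (RBBP8). The values given for single repair genes below come from limma without the block, as do the unadjusted p-values that follow. At an unadjusted p under 0.05, 7 of the 33 (21.2%) were lower and 1 (3.03%) was higher, against 9.19% and 7.04% of all genes, and voom on reads worked back from the RPKM called 0. The missing gene is RAD51B, a recombinase paralog, which stood at 0.381, 0.381 and 0.262 RPKM in siNT and 0.357, 0.361 and 0.358 RPKM in siHKlincR1, under the mean of 0.5 RPKM that a test required.

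The changes were small. The median log2 fold change of the 33 genes was -0.09, with a range from -0.45 to 0.27, beside 0.00 over all genes. A log2 fold change below 0 was seen in 23 of the 33 (69.7%), against 49.8% of all genes. The 95% interval lay inside a 1.5-fold change either way for 27 of the 33 (81.8%), against 66.5% of all genes. The 6 genes whose interval reached further were BRCA2, BRIP1, FANCB, FANCF, FANCG and FANCM, so a change above 1.5-fold was not shown to be absent for them.

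**Figure D1:**
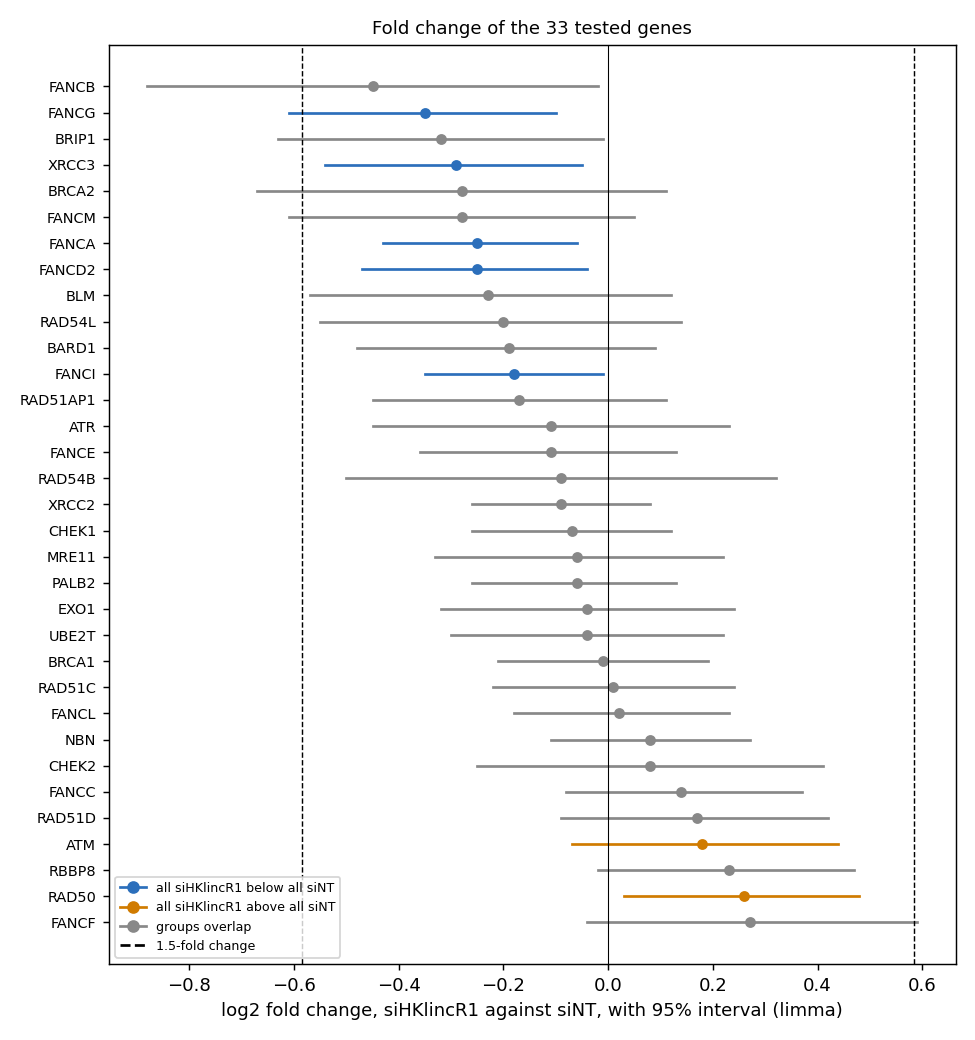
Log2 fold change of siHKlincR1 over siNT for the 33 repair genes tested, ordered by size, with 95% intervals from limma (3 libraries a group) and dashed lines at a 1.5-fold change. Blue marks the 5 genes with all siHKlincR1 libraries below all siNT, orange the 2 with all above, grey the rest. Estimates run from -0.45 for FANCB to 0.27 for FANCF, and no gene was called.

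The 3 siHKlincR1 libraries lay below all 3 siNT libraries for 5 of the 33 genes (15.2%), namely FANCG, XRCC3, FANCA, FANCD2 and FANCI, against 11.9% of all genes. They lay above for 2 (6.06%), RAD50 and ATM, against 10.1%. Compared by replicate number, 8 of the 33 (24.2%) were lower in all 3 pairs, against 25.2% of all genes, and 7 (21.2%) were higher in all 3, against 24%. These shares lie near the background.

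The genes differed widely in level. Per length, in siNT, EXO1 was the most abundant at 89.2 ± 8.04 RPKM (SD, n = 3), followed by UBE2T at 81.7 ± 1.36 RPKM, whose ranges overlap. FANCI (19.6 ± 0.252 RPKM) and NBN (18.8 ± 1.27 RPKM) came next and also overlapped within their spread. At the low end stood BRCA2 (2.33 ± 0.234 RPKM), FANCM (2.30 ± 0.193 RPKM), ATM (1.76 ± 0.114 RPKM) and RAD54B (1.18 ± 0.0431 RPKM), of which BRCA2 and FANCM did not differ beyond their spread. The median of the tested repair genes was 6.08 RPKM, against 5.05 RPKM for all genes tested. By reads worked back from the RPKM, the tested repair genes rested on 131 (FANCB in siHKlincR1 replicate 2) to 12581 reads (EXO1 in siHKlincR1 replicate 3) per library.

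**Figure D2:**
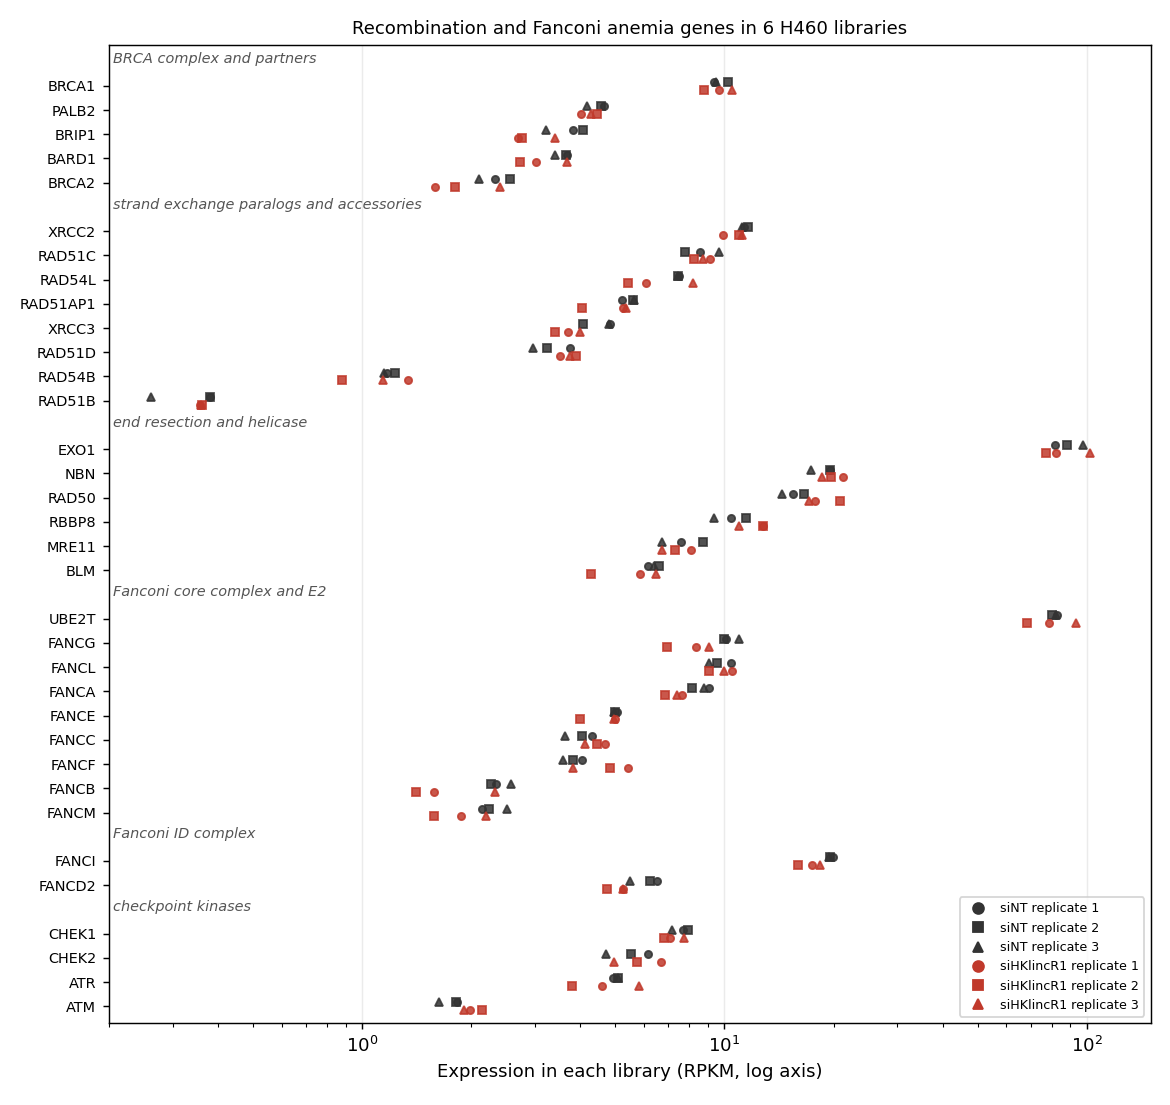
RPKM of the 34 repair genes in each of the 6 libraries on a log axis, grouped by role, with siNT in black, siHKlincR1 in red and a shape for each replicate number. EXO1 and UBE2T stand well above the rest, at 89.2 and 81.7 RPKM in siNT, and the levels of the groups mostly intermingle.

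The BRCA genes and their partners had a median log2 fold change of -0.19 over 5 genes, all 5 below 0. Within pairs the median was -0.28, -0.41 and 0.11 in replicates 1, 2 and 3, and in replicate 3 all 5 were above 0. In replicate 3 their median deviation from the siNT mean was -0.09 in siNT and 0.04 in siHKlincR1, so the control enters that difference. BRCA1, the ubiquitin ligase subunit that promotes recombination, was at 9.33, 10.2 and 9.50 RPKM in siNT and 9.63, 8.79 and 10.5 RPKM in siHKlincR1. Its groups overlapped, and the log2 fold change of -0.01 (95% interval -0.21 to 0.19) had an adjusted p of 0.967 by limma with Benjamini-Hochberg adjustment. BRCA2, which loads the recombinase onto single-stranded DNA, was at 2.33, 2.56 and 2.10 RPKM in siNT and 1.59, 1.8 and 2.4 RPKM in siHKlincR1. Its first and second siHKlincR1 libraries were the lowest of the 6, and the third lay among the controls. The log2 fold change was -0.28 (SE 0.17) with an adjusted p of 0.424. BRIP1, the helicase that binds BRCA1, showed the same arrangement, at 3.82, 4.08 and 3.22 RPKM in siNT and 2.69, 2.77 and 3.40 RPKM in siHKlincR1 (log2 fold change -0.32, SE 0.13, adjusted p = 0.301). BARD1, the partner of BRCA1 in its ligase, had a log2 fold change of -0.19, and PALB2, which bridges BRCA1 and BRCA2, one of -0.06.

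Among the recombinase paralogs and strand exchange factors the median was -0.09 over 7 tested genes, with 5 below 0. XRCC3, a recombinase paralog at chr14:104163946-104181841 (GRCh37), was at 4.82, 4.06 and 4.80 RPKM in siNT and 3.69, 3.41 and 3.98 RPKM in siHKlincR1. It was lower in every pair, with a log2 fold change of -0.29 (SE 0.10) and an adjusted p of 0.262 by limma. KLC1 on the opposite strand shares 5756 exonic bases with XRCC3 and had a log2 fold change of 0.02, and whether strand was used in counting is not given in the sources used here. RAD54L, a motor protein of strand exchange, was at 7.48, 7.42 and 7.42 RPKM in siNT and 6.06, 5.40 and 8.18 RPKM in siHKlincR1, so its treated libraries lay on both sides of closely grouped controls. Its log2 fold change was -0.20 with an adjusted p of 0.502. LRRC41 on the opposite strand shares 813 exonic bases with RAD54L and had a log2 fold change of -0.34 (adjusted p = 0.215). Over all 13 pairs of a tested repair gene and a tested gene with shared exonic bases, the changes had the same direction in 8. The others ran from -0.17 (RAD51AP1, which stimulates strand invasion) through -0.09 (XRCC2 and RAD54B) and 0.01 (RAD51C) to 0.17 (RAD51D).

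The end resection factors and the BLM helicase were divided, with 3 of 6 below 0 and a median of 0.02. RAD50, the long coiled-coil subunit of the MRE11 complex that holds broken ends, lies at chr5:131891711-131982041 (GRCh37). It was at 15.5, 16.6 and 14.4 RPKM in siNT and 17.8, 20.8 and 17.1 RPKM in siHKlincR1, above the controls in every library. The log2 fold change was 0.26 (SE 0.10) with an adjusted p of 0.278 by limma. The other subunits of that complex, the nuclease MRE11 and the adaptor NBN, had log2 fold changes of -0.06 and 0.08. RBBP8, which starts resection, had one of 0.23 (SE 0.10, adjusted p = 0.33) and was higher in all 3 pairs with overlapping groups. EXO1, the nuclease of long resection, was at 81.8, 88.1 and 97.7 RPKM in siNT and 82.2, 77.2 and 102 RPKM in siHKlincR1, a log2 fold change of -0.04. BLM, which unwinds ends and dissolves crossover intermediates, had one of -0.23 (adjusted p = 0.464) and was lowest in siHKlincR1 replicate 2, at 4.28 RPKM against 6.15 to 6.60 RPKM in siNT.

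The Fanconi core complex with UBE2T had a median of -0.11 over 9 genes, 6 of them below 0. FANCB, a core subunit encoded on chromosome X, had the largest change of all 33, at 2.34, 2.27 and 2.58 RPKM in siNT and 1.58, 1.41 and 2.32 RPKM in siHKlincR1. Its siHKlincR1 replicate 3 reached the control range. The log2 fold change was -0.45 (SE 0.18, 95% interval -0.88 to -0.02) with an adjusted p of 0.302 by limma with Benjamini-Hochberg adjustment. Without siHKlincR1 replicate 3, FANCB was called lower, at -0.65 (SE 0.12, adjusted p = 0.0345), and RAD54L had -0.37 (SE 0.08, adjusted p = 0.0463) without passing the fold threshold. In that fit 2.04% of all genes were called lower and 1.32% higher, so 1 of 33 lies near the background. NPM1P9, a pseudogene on the same strand, shares 844 exonic bases with FANCB and had a log2 fold change of -0.30 (adjusted p = 0.34), and how reads of the shared stretch were assigned is not given in the sources used here.

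FANCG, a scaffold subunit at chr9:35073832-35080001 (GRCh37), was at 10.1, 9.97 and 11 RPKM in siNT and 8.33, 6.96 and 9.08 RPKM in siHKlincR1. All treated libraries were below all controls, by a log2 fold change of -0.35 (SE 0.11) with an adjusted p of 0.227 by limma. FANCA, the partner of FANCG in the core, was at 9.04, 8.16 and 8.79 RPKM in siNT and 7.62, 6.85 and 7.41 RPKM in siHKlincR1. Its differences within pairs were -0.24, -0.25 and -0.24 on the log2 scale, the most even of the genes named here, with an estimate of -0.25 (SE 0.08) and an adjusted p of 0.234. ZNF276 on the opposite strand shares 2409 exonic bases with FANCA and had a log2 fold change of 0.12. FANCM, the translocase that anchors the core to DNA, was at 2.14, 2.24 and 2.51 RPKM in siNT and 1.87, 1.58 and 2.20 RPKM in siHKlincR1 (log2 fold change -0.28, SE 0.14, adjusted p = 0.36). It was lower in each pair, with groups that overlapped.

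FANCF, an adaptor of the core, lay in the other direction, at 4.04, 3.83 and 3.59 RPKM in siNT and 5.41, 4.82 and 3.81 RPKM in siHKlincR1. The first and second treated libraries exceeded all controls and the third did not, and the log2 fold change of 0.27 (SE 0.13) had an adjusted p of 0.352 by limma. FANCC and FANCE, which sit beside FANCF in the core, had log2 fold changes of 0.14 and -0.11. The ligase subunit FANCL had one of 0.02 and UBE2T one of -0.04.

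Both genes of the pair that receives ubiquitin were lower without overlap, which held for 11.9% of all genes tested. FANCD2 was at 6.53, 6.23 and 5.49 RPKM in siNT and 5.25, 4.74 and 5.24 RPKM in siHKlincR1 (log2 fold change -0.25, SE 0.09, adjusted p = 0.268 by limma). FANCI was at 19.9, 19.5 and 19.4 RPKM in siNT and 17.5, 16.0 and 18.4 RPKM in siHKlincR1 (log2 fold change -0.18, SE 0.07, adjusted p = 0.292). POLG on the opposite strand shares 458 exonic bases with FANCI and had a log2 fold change of -0.05. Neither FANCD2 nor FANCI was called.

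The checkpoint kinases had a median of 0.01. ATM, which responds to double-strand breaks, was at 1.83, 1.82 and 1.63 RPKM in siNT and 1.98, 2.14 and 1.91 RPKM in siHKlincR1, higher without overlap. Its log2 fold change was 0.18 (95% interval -0.07 to 0.44) with an adjusted p of 0.423 by limma. ATR, which responds to single-stranded DNA at stalled forks, was at 4.93, 5.09 and 5.08 RPKM in siNT and 4.58, 3.80 and 5.80 RPKM in siHKlincR1 (log2 fold change -0.11, adjusted p = 0.72). Treated libraries of ATR lay on both sides of the controls. CHEK1, its effector, was at 7.68, 7.92 and 7.15 RPKM in siNT and 7.09, 6.81 and 7.75 RPKM in siHKlincR1 (log2 fold change -0.07, adjusted p = 0.675). CHEK2, the effector of ATM, was at 6.15, 5.53 and 4.70 RPKM in siNT and 6.70, 5.73 and 4.96 RPKM in siHKlincR1 (log2 fold change 0.08, adjusted p = 0.788). CHEK2 was higher within each pair, by 0.12, 0.05 and 0.07, while the spread between replicate numbers was larger than those differences.

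The 3 siHKlincR1 libraries did not behave alike for these genes. The median difference within pairs was -0.07 in replicate 1, -0.24 in replicate 2 and 0.07 in replicate 3. In those pairs, 19, 24 and 11 of the 33 genes were lower (57.6%, 72.7% and 33.3%), against 49.4%, 51% and 50.4% of all genes. Each difference also depends on the control. In replicate 3 the median deviation from the siNT mean was -0.04 in siNT and -0.00 in siHKlincR1. The lowest of the 6 libraries was siHKlincR1 replicate 2 for 19 genes (57.6%, against 25.7% of all genes) and siHKlincR1 replicate 3 for 0 (15% of all genes). HKlincR1 itself had a log2 difference of -3.00 in replicate 3, against -2.49 and -2.29 in replicates 1 and 2. These values rest on 37, 42 and 27 HKlincR1 reads, worked back from the RPKM, in siHKlincR1 replicates 1, 2 and 3, so their order is uncertain. Without siHKlincR1 replicate 2, the median of the repair genes was -0.03 and 18 of 33 were below 0. The SD of log2 values was larger in siHKlincR1 than in siNT for 23 of the 33 genes (69.7%, against 60.2% of all genes).

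**Figure D3:**
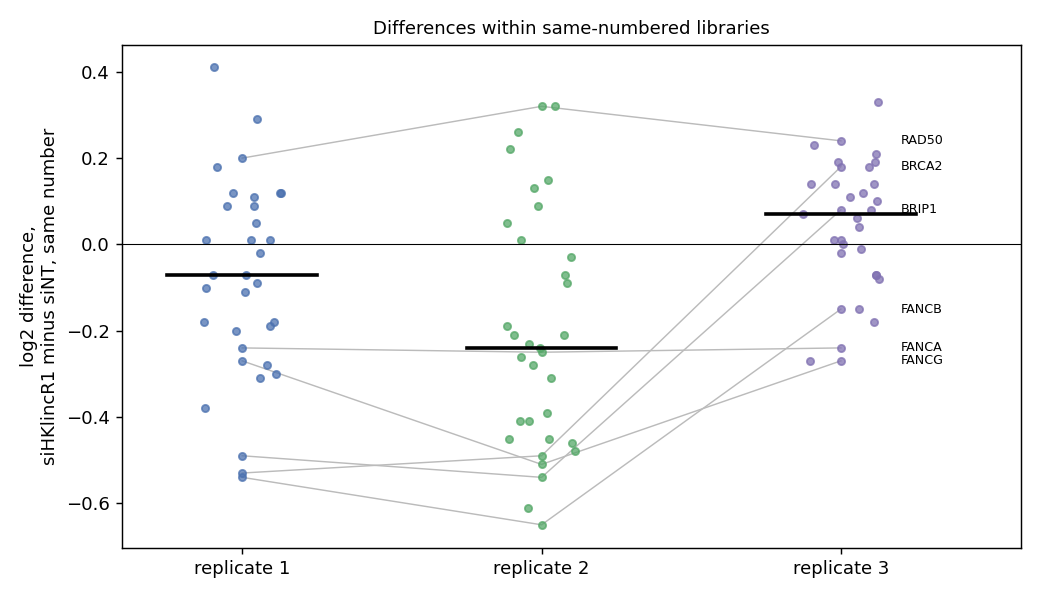
Log2 difference between siHKlincR1 and siNT libraries of the same replicate number for the 33 repair genes tested (points), with the median as a black bar and lines joining 6 named genes. The medians are -0.07, -0.24 and 0.07, and BRCA2 and BRIP1 are below 0 in replicates 1 and 2 and above 0 in replicate 3.

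The neighbouring pathways were read from lists of genes outside the 34. Other recombination and Fanconi genes, such as nucleases, accessory factors and RPA subunits, numbered 41, all tested, with 25 below 0, none called and a median of -0.06. The largest changes were -0.43 for FIGNL1 (adjusted p = 0.39 by limma) and -0.37 for CENPX (adjusted p = 0.36). Of 16 checkpoint partners, 12 were below 0, none was called and the median was -0.11. CLSPN, the claspin adaptor that lets ATR activate CHEK1, was at 8.76 ± 0.657 RPKM in siNT and 5.86 ± 2.20 RPKM in siHKlincR1 (SD, n = 3), a log2 fold change of -0.63 (adjusted p = 0.268 by limma). RAD9A, part of the checkpoint clamp, had one of -0.39 (adjusted p = 0.391). End joining, the competing route of break repair, had 9 of 15 tested genes (16 listed) below 0, none called and a median of -0.04, with POLQ at -0.22 (adjusted p = 0.517) and XRCC6 at -0.17 (adjusted p = 0.345).

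The S phase genes outside the 34 had a median of -0.24. The list was drawn up with earlier results of these data known and holds genes, such as CDC6 and E2F8, that the study had named from the same libraries, so its direction is not independent evidence. Of 38 listed, 37 were matched and tested. Of these, 32 (86.5%) were below 0, against 49.8% of all genes, 24 (64.9%) were lower in all 3 pairs, against 25.2%, and 10 (27%) had all treated libraries below all controls, against 11.9%. TIPIN stands both here and among the checkpoint partners. The difference between this list and the repair genes was not tested. None was called by limma without a block, and 10 were lower at an unadjusted p under 0.05. CCNE2, a cyclin of S phase entry, had a log2 fold change of -0.90 (adjusted p = 0.23), and CDC6, a licensing factor of replication origins, one of -0.65 (adjusted p = 0.174, and 0.0436 with the replicate block, which calls it lower). By library, the median deviation of the S phase genes from the siNT mean was -0.31, -0.43 and 0.02 in siHKlincR1 replicates 1, 2 and 3, beside -0.09, -0.25 and -0.00 for the repair genes. Among the siHKlincR1 libraries both lists were lowest in replicate 2 and highest in replicate 3. In siNT replicates 1, 2 and 3 the order differed, at -0.06, -0.01 and 0.08 for the S phase genes and 0.02, 0.03 and -0.04 for the repair genes. The part of the S phase genes in the values above was not tested. In such bulk samples fewer cells in S phase and less RNA of these genes per cell cannot be told apart.

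**Figure D4:**
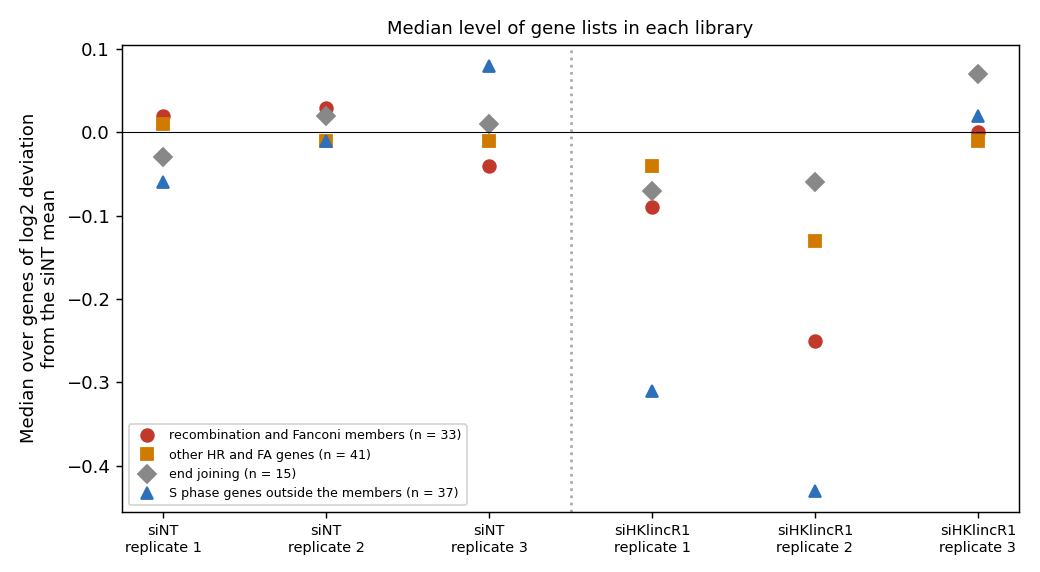
Median log2 deviation from the siNT mean in each library for the repair genes (circles), other recombination and Fanconi genes (squares), end joining (diamonds) and S phase genes (triangles). In siHKlincR1 replicate 2 the repair genes sit at -0.25 and the S phase genes at -0.43, and in replicate 3 they sit at -0.00 and 0.02.

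Interferon response genes, which transfected siRNA can induce, were below 0 in 6 of 6 tested (7 listed), with none called and a median of -0.35. IFIT1 had a log2 fold change of -0.49 (adjusted p = 0.256 by limma) and DDX58 one of -0.41 (adjusted p = 0.251). The fibroblast collagen COL1A1 was at 1.10 ± 0.116 RPKM in siNT and 0.58 ± 0.179 RPKM in siHKlincR1 (SD, n = 3), a log2 fold change of -0.85 with an adjusted p of 0.196, and COL1A2 stayed at or below 0.0126 RPKM. Their part in the repair gene values was not tested.

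Since the knockdown rested on 1 siRNA, the 3′ UTRs of the repair genes were searched for the letters its guide strand could pair with through its seed. The sense strand from the labels and the guide derived from it are shown, with the seed (bases 2 to 8) in capitals.

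siHKlincR1_2 sense: gaaguauacucgugugcuu

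siHKlincR1_2 guide: aAGCACACgaguauacuuc

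The matching site GTGTGCT was found once in the canonical 3′ UTR (GENCODE v44 on GRCh37) of 5 of the 33 tested genes (15.2%), against 14.1% of all tested genes with a 3′ UTR. The sites are printed because they show which repair genes carry the letters, in capitals, on the transcript strand. They lie on the minus strand at chr17:59760433-59760461 (BRIP1), chr9:97862561-97862589 (FANCC), chr11:94149361-94149389 (MRE11), chr17:33420883-33420911 (RAD51D) and chr7:152343303-152343331 (XRCC2).

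BRIP1: ggaatgcagtgGTGTGCTctgggctcact

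FANCC: cagtcagaaggGTGTGCTggtaaagtatt

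MRE11: tattaaaatgtGTGTGCTtacctttaatc

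RAD51D: tgtctagttctGTGTGCTggggtttggca

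XRCC2: cagaagaattaGTGTGCTaaggtccttgc

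The 5 genes with the site had a median log2 fold change of -0.06, from -0.32 for BRIP1 to 0.17 for RAD51D, with 3 below 0. The 28 without it had a median of -0.10, and over all tested genes the medians were -0.08 with the site and -0.01 without. Of the 3 largest changes, those of FANCB and FANCG were in genes without the site and that of BRIP1 in a gene with it. Whether the site had a part in these values was not tested. The annotated 3′ UTRs of MRE11 (4555 bases) and RAD51D (8732 bases) are longer than the gene models whose lengths the deposited RPKM imply (3538 and 3720 bases), so the site may lie outside the counted model.

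Promoters were searched for E2F-type letters, since E2F factors drive many S phase genes. The letters TTTCCCGC, TTTGGCGC, TTTCGCGC and TTTGCCGC were looked for on both strands in RefSeq promoters of 300 bases, 250 before and 50 after the start (GRCh38.p14). They were found in 5 of 31 repair genes with a promoter in the table (16.1%), against 3.99% of 27305 genes and 5.4% of 15843 protein-coding genes. A match is a description of letters and not a site of binding. The windows follow, printed on the gene's strand with the match in capitals, so that a match on the other strand reads as its reverse complement. They lie at chr7:152676103-152676130 (XRCC2, minus strand), chr1:241848198-241848225 (EXO1, plus strand), chr16:89816802-89816829 (FANCA, minus strand), chr9:95317738-95317765 and chr9:95317864-95317891 (FANCC, minus strand) and chr3:10026425-10026452 (FANCD2, plus strand).

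XRCC2: ggcgttggtgGCGGGAAAgttgagtctc

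EXO1: aaggtcagccTTTCGCGCgctgtgtagg

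FANCA: ctacaccgcgGCGGCAAAgccaaacgca

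FANCC, nearer the start: tcgtcggaatTTTCCCGCgacgccgcgg

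FANCC, farther from the start: cggggcttccGCGCGAAAccgggaacac

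FANCD2: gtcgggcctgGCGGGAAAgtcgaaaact

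Of these 5 genes, FANCA and FANCD2 were lower without overlap of the groups, XRCC2 (-0.09) and EXO1 (-0.04) lay near 0 and FANCC (0.14) was above it. Lower without overlap held for 11.9% of all genes, and also for FANCG and XRCC3, which had no match, and for FANCI. Whether the letters had a part in these values was not tested. FANCI, RAD54B and NBN were not searched.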

How the data were processed

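PolyA RNA from siNT and siHKlincR1 H460 cells was sequenced as strand-specific paired-end libraries. The authors deposited RPKM values per gene. Their processing notes name CASAVA 1.8.2, featureCounts and GRCh37 (hg19), and the methods name Ensembl v74 gene models. The aligner and the strand setting of the counting are not given in the sources used here.

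From the deposited RPKM, log2(RPKM + 0.1) was fitted with limma 3.58.1 (R 4.3.3, mean-variance trend) over all 6 libraries for genes averaging 0.5 RPKM or more, with Benjamini-Hochberg adjustment over all genes tested. A call needed an adjusted p under 0.05 and a change above 1.5-fold. Fold changes on this scale understate changes of low genes. Reads were worked back with library totals and gene lengths inferred from the same RPKM. Where a length was found, the values gave whole reads within 0.001 reads. The lengths were chosen to make the reads whole, so this is not an independent check of them. The script was tested on simulated data whose changes were larger than that of any repair gene and which held no replicate effect. How well it finds changes of the sizes seen here was not tested. Precision is limited by 3 libraries a group, where an exact permutation test cannot go below 0.10.

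Groups and replicate numbers came from the labels. Deviations of same-numbered libraries correlated at 0.142, 0.137 and 0.266, against -0.209 to 0.113 for different numbers. Each group was centred on its own mean, so the values for same and different numbers are not independent. The numbers were taken to pair the libraries and a blocked fit was added. That pairing rests on the numbers and on these same data. Per-library values are given for genes without overlap of the groups, for the 10 largest changes and for BRCA1, BRCA2, FANCD2, FANCA, ATM, ATR, CHEK1 and CHEK2, and from each list the 2 largest changes and any called gene. RAD54L, EXO1, BLM and RAD51B were added after their values were seen. The genes and lists were chosen with earlier results of these data known. Overlapping gene models were taken from GENCODE v44.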

Additional observations from a re-analysis of the deposited data

How the results depend on the processing

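No repair gene was called under another pseudocount (0.01 or 1), without the filter or with a mean of at least 1 RPKM. The same held after median centring or quantile normalization, without the trend, with the replicate block and with voom on reads worked back. In the fit without the block, none was called with no fold threshold, nor at an adjusted p under 0.10 with the fold threshold kept. The median of the repair genes ran from -0.09 to -0.06 under these settings and, when 1 library was left out, from -0.15 to -0.03. Leaving out 1 library gave 0 to 1 repair genes called, the 1 being FANCB without siHKlincR1 replicate 3 (-0.65). The replicate block changed no call among the repair genes, whose number called was 0 with and without the block. In the blocked fit the adjusted p by limma was under 0.10 for RAD50 (0.07), FANCG (0.0702), FANCA (0.0807), XRCC3 (0.0891) and RBBP8 (0.0953). Each of these changes was below the fold threshold. HKlincR1 was called throughout, from -2.80 (voom) to -1.61 (pseudocount 1).

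Leaving out 1 library turned the direction of 9 genes near 0. The log2 fold changes then ran from -0.07 to 0.05 for BRCA1, from -0.07 to 0.09 for RAD51C, from -0.15 to 0.04 for MRE11, from -0.16 to 0.04 for EXO1, from -0.02 to 0.08 for FANCL, from -0.03 to 0.19 for CHEK2, from -0.22 to 0.05 for RAD54B, from -0.15 to 0.07 for UBE2T and from -0.26 to 0.03 for ATR. The cause was not tested.

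Over all genes, 55 were called lower and 1 higher. The numbers were 125 and 79 with the replicate block, 87 and 2 with voom, 16 and 1 without the trend, and 34 and 12 with no filter. Without siHKlincR1 replicate 3 they were 315 and 205, and without any other single library 7 to 18 lower and 0 to 2 higher. With edgeR on counts the study reported more genes in both directions than limma without the block, and more higher than lower. The absence of a called repair gene therefore holds for the fits used here. FANCB had the fewest worked-back reads of the tested repair genes in 1 library. For FANCB the counting error of a library was 7.26% of its level, while the SD in siHKlincR1 was 0.482 RPKM on a mean of 1.77 RPKM. Counting error is thus the smaller part of that spread.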
